A study of Oryza sativa with 3 samples.

Results

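The MIR444 family of rice consists of 6 known precursors, osa-MIR444a to osa-MIR444f, out of 516 known precursors in 281 families that had reads in small RNA libraries of 3 rice lines. All reads placed on a precursor of one of these 6 names were taken, and a read placed on several of them was counted a single time in the family. Ov199 carries OsNAR2.1 driven by the Ubi promoter (labelled pUbi-OsNAR2.1), RNAi is a line in which OsNAR2.1 was silenced by RNA interference (title OsNAR2.1RNAi, line tag Ni) and NP is the untransformed wild type Nipponbare (line tag WT-N). Each line is represented by 1 library of RNA pooled from leaves, flowers and stems of field-grown plants at the blooming stage. Each transgenic line is a single line, organs cannot be told apart in a pool (nor can fewer cells of a type and less RNA per cell), and OsNAR2.1 mRNA was not measured in these libraries, so the labels were not checked against it.

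OsNAR2.1 is the partner protein that high-affinity nitrate transporters of rice need for nitrate uptake. miR444 is a microRNA family found in monocots. Its precursors are transcribed from the strand opposite to MADS-box genes, so that the spliced hairpin can guide cleavage of the mRNA of the gene on the other strand. The targets in rice include OsMADS23, OsMADS27 and OsMADS57, relatives of ANR1, a MADS-box gene of Arabidopsis that promotes lateral root growth in nitrate-rich patches. In rice, miR444 has been linked to nitrate-dependent root growth, to tillering through OsMADS57 and to antiviral silencing.

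A mature species is here 1 exact sequence, named by its member and by its first and last position on that precursor, with positions counted from 1 at the 5′ end of the precursor. The following 6 species carry the results below. Capitals mark the seed, bases 2 to 8 of the small RNA, and the letters are written as DNA, as in the deposited files.
MIR444b 105 to 125, the upstream 21 nt form of osa-MIR444b and osa-MIR444c: tGCAGTTGttgtctcaagctt
MIR444b 104 to 125, the upstream 22 nt form of osa-MIR444b and osa-MIR444c: gTGCAGTTgttgtctcaagctt
MIR444b 111 to 131, the downstream form of osa-MIR444b and osa-MIR444c: tGTTGTCTcaagcttgctgcc
MIR444c 24 to 44, the form from the 5′ side of the osa-MIR444c hairpin: cGGCAAGCtagagacagcaac
MIR444a 99 to 119, the upstream 21 nt form of osa-MIR444a, osa-MIR444d and osa-MIR444e: tGCAGTTGctgcctcaagctt
MIR444a 107 to 123, a 17 nt form of osa-MIR444a and osa-MIR444d: cTGCCTCAagcttgctg

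The upstream 22 nt form was the upstream 21 nt form with 1 further base at its 5′ end, and both ended at the same base. The shift moved the seed by 1 base. The downstream form started 6 nt after the upstream 21 nt form and overlapped it, so both cannot be cut from the same precursor molecule. The upstream 21 nt forms of the members differed at 2 positions, counted from 1 at the 5′ end of the small RNA and shown in capitals in the next 3 lines.
osa-MIR444a, osa-MIR444d and osa-MIR444e: tgcagttgCtgCctcaagctt
osa-MIR444f: tgcagttgttgCctcaagctt
osa-MIR444b and osa-MIR444c: tgcagttgTtgTctcaagctt

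Relative to the sequence of osa-MIR444b and osa-MIR444c, the upstream 21 nt form of osa-MIR444a, osa-MIR444d and osa-MIR444e carried T9C and T12C, and that of osa-MIR444f carried T12C. Both positions lie outside the seed. The exact osa-MIR444f sequence had 0 reads in Ov199, 2 in RNAi and 2 in NP, so a count of 0 in Ov199 allows up to 31.9 normalized counts. Normalized counts are reads per 1000000 reads aligned to any precursor.

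The libraries held 94154 aligned reads in Ov199, 62724 in RNAi and 49341 in NP, so that 1 read was worth 10.6 (Ov199), 15.9 (RNAi) and 20.3 (NP) normalized counts. A count of 0 allows up to 3 reads, which is 31.9 normalized counts in Ov199, 47.8 in RNAi and 60.8 in NP. Intervals, given in parentheses, are 95% intervals (Wilson for shares, exact Poisson for levels, exact binomial for ratios) and cover counting error only, since reads without molecular identifiers are not independent molecules. With 1 library per line, Fisher's exact test (two-sided) compares libraries and not lines, and the spread between plants is unknown. P-values were adjusted by the Benjamini-Hochberg method over all features tested, a call is an adjusted p under 0.05, and 2-fold refers to the ratio of normalized count + 10.

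The MIR444 family was among the most abundant families, and its level was higher in both transgenic libraries than in the NP library. The family had 4025 reads in Ov199, 2573 in RNAi and 1645 in NP. This was 4.27% of all aligned reads in Ov199 (4.15 to 4.41%), 4.10% in RNAi (3.95 to 4.26%) and 3.33% (3.18 to 3.50%) in NP. By reads it ranked 4 among 231 families in Ov199, 6 among 229 in RNAi and 6 among 223 in NP. Its normalized count was 42749 in Ov199, 41021 in RNAi and 33339 in NP, so the intervals of Ov199 (41439 to 44091) and RNAi (39451 to 42637) overlapped each other and not that of NP (31748 to 34990).

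In Ov199 against NP the family was 1.28 times as abundant (interval 1.21 to 1.36, adjusted p = 7.3e-17, Fisher's exact test over 259 families). In that comparison 18.9% of all families were called. In RNAi against NP the ratio was 1.23 (1.16 to 1.31, adjusted p = 4.5e-10), where 9.80% of families were called. Both comparisons use the same NP library. In RNAi against Ov199 the ratio was 0.960 (0.913 to 1.01, adjusted p = 0.28), which was not called, while 18.2% of families were. None of these differences reached 2-fold. Without the upstream 22 nt form, a setting chosen after seeing the data, the fold of RNAi against NP was 1.10 and was not called (adjusted p = 0.10 by Fisher's exact test), while that of Ov199 against NP was 1.16 and was called (adjusted p = 0.00019). With totals scaled by TMM the fold of RNAi against Ov199 was 0.857 and was called (adjusted p = 4.0e-09), as it was under 3 other settings.

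Nearly all of the family's reads came from osa-MIR444b and osa-MIR444c. Reads placed on each member, with shared reads counted at every member they fit, are given next. osa-MIR444b had 3701 reads in Ov199, 2385 in RNAi and 1445 in NP, which gave normalized counts of 39308 (Ov199), 38024 (RNAi) and 29286 (NP). osa-MIR444c had 3790 (Ov199), 2448 (RNAi) and 1505 (NP) reads, or 40253 (Ov199), 39028 (RNAi) and 30502 (NP) normalized counts. These precursors were higher in Ov199 and in RNAi than in NP, and their levels in the first 2 libraries had overlapping intervals.

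The other members were at least an order of magnitude lower. osa-MIR444a had 131 reads in Ov199, 91 in RNAi and 94 in NP, which gave normalized counts of 1391 (Ov199), 1451 (RNAi) and 1905 (NP). osa-MIR444d had 159 (Ov199), 105 (RNAi) and 116 (NP) reads, or 1689 (Ov199), 1674 (RNAi) and 2351 (NP) normalized counts. For osa-MIR444a the intervals of Ov199 (1163 to 1651) and RNAi (1168 to 1781) both overlapped that of NP (1540 to 2331). For osa-MIR444d the intervals of Ov199 (1436 to 1973) and RNAi (1369 to 2026) likewise overlapped that of NP (1943 to 2820). Such overlap is not a test of the ratio. The ratio of osa-MIR444a to NP was 0.730 in Ov199 (0.556 to 0.962) and 0.762 in RNAi (0.564 to 1.03). That of osa-MIR444d was 0.712 in RNAi (0.542 to 0.935), and none of these ratios was called. osa-MIR444e had 69 reads in Ov199, 36 in RNAi and 44 in NP. These were 733 (Ov199), 574 (RNAi) and 892 (NP) normalized counts, with overlapping intervals. osa-MIR444f had 13 (Ov199), 6 (RNAi) and 6 (NP) reads, or 138 (Ov199), 95.7 (RNAi) and 122 (NP) normalized counts, too few to order the libraries.

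**Figure D1:**
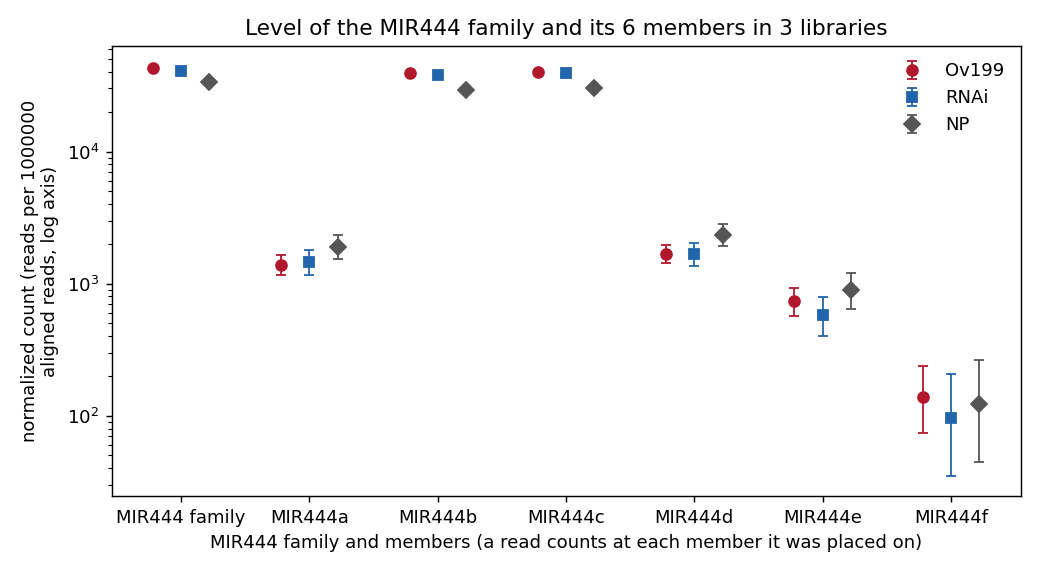
Normalized counts (reads per 1000000 aligned reads, log axis) of the MIR444 family and its 6 members in the Ov199, RNAi and NP libraries, with exact Poisson 95% intervals. osa-MIR444b and osa-MIR444c lie between 29286 and 40253, and the other 4 members lie between 95.7 and 2351.

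Of the 6 members, 3 were called in Ov199 against NP, where 19.0% of all known precursors were called. osa-MIR444b was higher (ratio 1.34, interval 1.26 to 1.43, adjusted p = 6.8e-21, Fisher's exact test) and so was osa-MIR444c (1.32, 1.24 to 1.40, adjusted p = 3.2e-19), while osa-MIR444d was lower (0.718, 0.562 to 0.921, adjusted p = 0.041). In RNAi against NP 2 members were called, with 15.5% of precursors called. They were again osa-MIR444b (1.30, 1.22 to 1.39, adjusted p = 4.8e-14) and osa-MIR444c (1.28, 1.20 to 1.37, adjusted p = 4.5e-13). In RNAi against Ov199 no member was called at 0.05 and none had an unadjusted p below it in Fisher's exact test, while 20.9% of precursors were called. With all reads counted no member was past 2-fold in any comparison, while 42.5% of all precursors were when Ov199 was set against NP, 43.5% for RNAi against NP and 46.0% between RNAi and Ov199, many of them with few reads. With reads placed on a single precursor alone, 5 members could be tested, as osa-MIR444e had no such read. Of these, 1 was past 2-fold when Ov199 was compared with NP, and 2 were when RNAi was compared with NP or with Ov199. The share of all precursors under that setting is not given here, so these counts have no background beside them. Only osa-MIR444b was called under that setting, in RNAi against Ov199, with 7 reads in RNAi and 59 in Ov199 (fold 0.191, adjusted p = 4.3e-06 by Fisher's exact test). The calls of osa-MIR444b and osa-MIR444c are not separate observations, because these precursors shared most of their reads.

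The call of osa-MIR444d did not hold under several settings. It was lost with reads of 20 to 24 nt alone (fold 0.854, adjusted p = 0.61, Fisher's exact test) and with exact alignments alone (0.748, adjusted p = 0.11). A short form shared by osa-MIR444a and osa-MIR444d, described below, was among the reads left out by the first setting.

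Few reads could be given to 1 member. Of the family's reads, 93.6% in Ov199 (92.8 to 94.4%), 95.8% in RNAi (94.999 to 96.5%) and 92.6% (91.2 to 93.8%) in NP were placed on several members, and 0 reads of any library were also placed on a precursor outside the family. The reads shared by osa-MIR444b and osa-MIR444c alone made up 90.4% in Ov199, 92.4% in RNAi and 86.6% in NP. osa-MIR444c had 148 reads of its own in Ov199, 70 in RNAi and 76 in NP. osa-MIR444b had 59 (Ov199), 7 (RNAi) and 16 (NP), and osa-MIR444d had 43 (Ov199), 22 (RNAi) and 27 (NP). osa-MIR444e had no read of its own in any library, osa-MIR444a had 3 in Ov199, 3 in RNAi and 0 in NP, and osa-MIR444f had 3 (Ov199), 5 (RNAi) and 3 (NP). The level of osa-MIR444e could therefore not be separated from those of osa-MIR444a and osa-MIR444d. For the most part this also holds for osa-MIR444a against osa-MIR444d and for osa-MIR444b against osa-MIR444c.

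Divided into groups that share almost no reads, the family split in direction. Reads placed on osa-MIR444b or osa-MIR444c and on no other member numbered 3844 in Ov199, 2454 in RNAi and 1517 in NP, or 95.5% (Ov199), 95.4% (RNAi) and 92.2% (NP) of the family. Their level ratio was 1.33 in Ov199 against NP (interval 1.25 to 1.41) and 1.27 in RNAi against NP (1.19 to 1.36). Reads placed on osa-MIR444a, osa-MIR444d, osa-MIR444e or osa-MIR444f and on neither of the other members numbered 176 (Ov199), 118 (RNAi) and 124 (NP), or 4.37% (Ov199), 4.59% (RNAi) and 7.54% (NP) of the family. Their ratio was 0.744 in Ov199 against NP (0.588 to 0.944) and 0.749 in RNAi against NP (0.577 to 0.971). With reads of 20 to 24 nt alone the ratios of the second group were 0.885 (0.662 to 1.19) and 0.787 (0.566 to 1.09), and these intervals include 1. The groups were formed after their values were seen and were not tested.

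At osa-MIR444b and osa-MIR444c, reads began mostly at 3 places. Of the exactly aligned reads, those that started with the upstream 21 nt form made up 37.5% in Ov199, 37.5% in RNAi and 40.5% in NP. Those that started 1 nt earlier, with the upstream 22 nt form, made up 37.4% (Ov199), 37.8% (RNAi) and 31.2% (NP). Those that started 6 nt later, with the downstream form, made up 13.3% (Ov199), 15.6% (RNAi) and 16.2% (NP). Ov199 and RNAi thus had about as many reads at the earlier upstream start as at the later one, while NP had more at the later one.

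**Figure D2:**
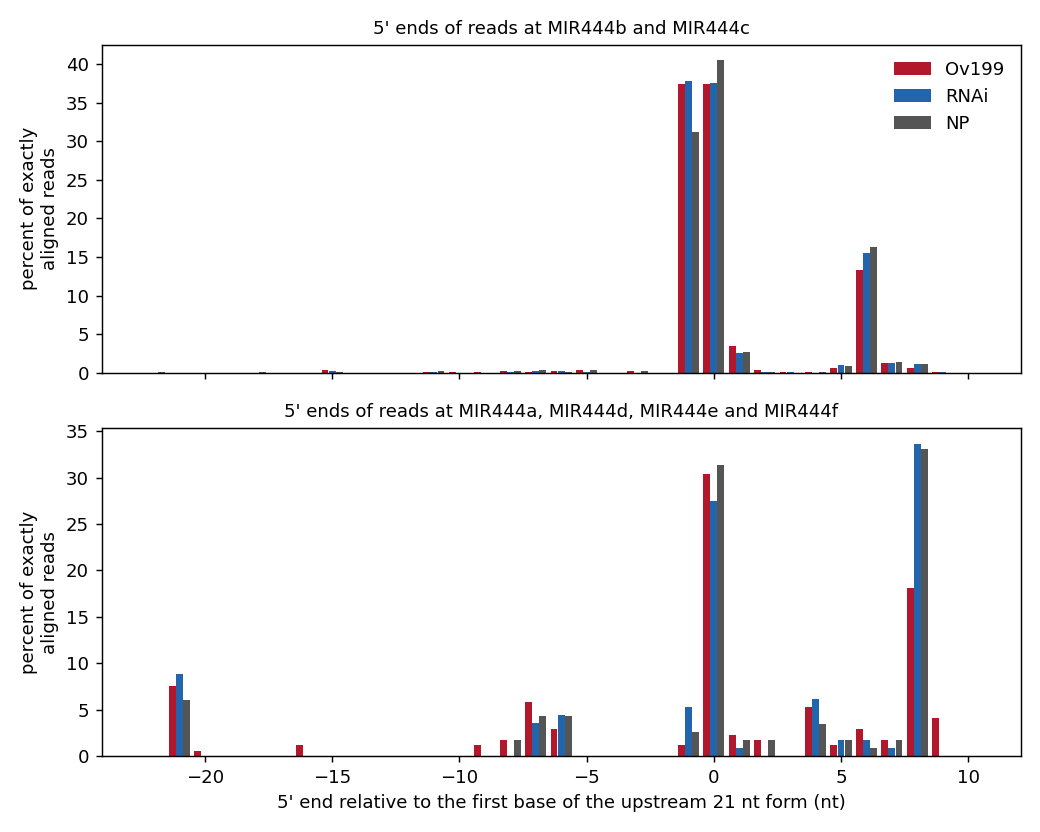
Percent of exactly aligned reads by the distance of their 5′ end from the first base of the upstream 21 nt form (nt), for the group of osa-MIR444b and osa-MIR444c (top) and the group of osa-MIR444a, osa-MIR444d, osa-MIR444e and osa-MIR444f (bottom), with bars for Ov199, RNAi and NP. At −1 nt in the top panel Ov199 reaches 37.4% and RNAi 37.8%, against 31.2% in NP, and the bottom panel has its main peaks at 0 and 8 nt.

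There were 28 exact sequences with 10 or more reads over the 3 libraries. They held 90.8% of the family's reads in Ov199, 93.6% in RNAi and 91.0% in NP, and the 3 most abundant alone held 75.7% (Ov199), 79.5% (RNAi) and 71.9% (NP). Among the 28, 15 were 21 nt long, 5 were shorter than 20 nt, and 19 fitted several members. They carried 20 different seeds. The seed of the upstream 21 nt form was shared by 4 of the sequences, among them the forms of osa-MIR444b and osa-MIR444c and of osa-MIR444a, osa-MIR444d and osa-MIR444e, and these held 34.7% of the family in Ov199, 35.2% in RNAi and 37.3% in NP. The seed of the upstream 22 nt form was shared by 2 sequences, which held 33.5% (Ov199), 34.2% (RNAi) and 26.99% (NP). The seed of the downstream form was likewise shared by 2, which held 11.95% (Ov199), 14.2% (RNAi) and 14.0% (NP).

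The upstream 22 nt form had the smallest adjusted p of the 28 sequences against NP in both lines. It had 1317 reads in Ov199, 858 in RNAi and 417 in NP, which gave normalized counts of 13988 (Ov199), 13679 (RNAi) and 8451 (NP). Its intervals in Ov199 (13242 to 14764) and RNAi (12779 to 14626) overlapped, and that of NP (7660 to 9303) lay below both. The Ov199 level was 1.66 times that of NP (interval 1.48 to 1.85, adjusted p = 7.8e-19 by Fisher's exact test) and the RNAi level 1.62 times (1.44 to 1.82, adjusted p = 1.6e-14). Between RNAi and Ov199 the ratio was 0.978 (0.896 to 1.07, adjusted p = 0.82), which was not called.

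The upstream 21 nt form differed less. It had 1257 reads in Ov199, 824 in RNAi and 535 in NP. These were 13350.5 (Ov199), 13137 (RNAi) and 10843 (NP) normalized counts. Its Ov199 level was 1.23 times that of NP (1.11 to 1.36, adjusted p = 0.00056 by Fisher's exact test) and its RNAi level 1.21 times (1.09 to 1.35, adjusted p = 0.0056). The ratio of RNAi to Ov199 was 0.984 (0.900 to 1.08, adjusted p = 0.91). In NP the 21 nt form was the more abundant of the pair, while in Ov199 and RNAi their intervals overlapped.

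The downstream form was called in none of the comparisons of levels. It had 471 reads in Ov199, 363 in RNAi and 231 in NP. These were 5002 normalized counts in Ov199, 5787 in RNAi and 4682 in NP. The ratio to NP was 1.07 for Ov199 (0.911 to 1.26, adjusted p = 0.68 by Fisher's exact test) and 1.24 for RNAi (1.05 to 1.46, adjusted p = 0.072), and the ratio of RNAi to Ov199 was 1.16 (1.01 to 1.33, adjusted p = 0.14).

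**Figure D3:**
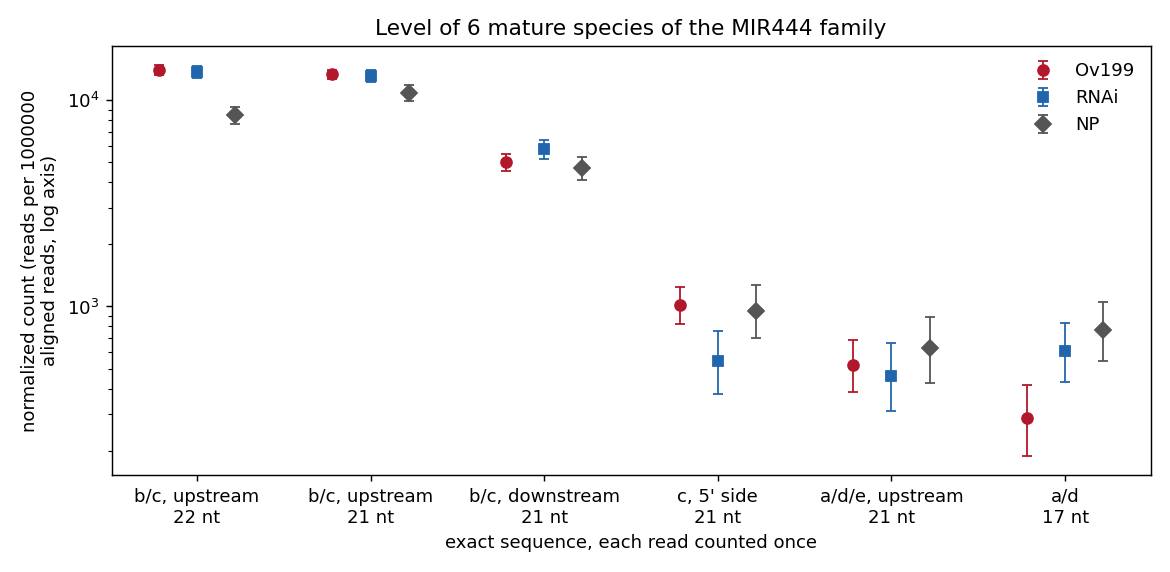
Normalized counts (reads per 1000000 aligned reads, log axis) of 6 exact sequences in Ov199, RNAi and NP, with exact Poisson 95% intervals. The upstream 22 nt form of osa-MIR444b and osa-MIR444c reaches 13988 in Ov199 and 13679 for RNAi, against 8451 for NP, and the 17 nt form is lowest in Ov199 at 287.

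Because the files carry no normalization across libraries, the share of each form within the family was compared as well, which does not depend on the library totals. The upstream 22 nt form made up 32.7% of the family's reads in Ov199 (31.3 to 34.2%), 33.3% in RNAi (31.6 to 35.2%) and 25.3% (23.3 to 27.5%) in NP. The difference from NP was 7.37 percentage points for Ov199 (adjusted p = 1.8e-06 by Fisher's exact test) and 7.997 for RNAi (adjusted p = 4.5e-06). Between RNAi and Ov199 it was 0.63 percentage points (adjusted p = 0.85). The share of the upstream 21 nt form was 31.2% in Ov199, 32.0% in RNAi and 32.5% in NP and was not called in any comparison (adjusted p between 0.70 and 0.99). The downstream form made up 11.7% in Ov199, 14.1% in RNAi and 14.0% in NP, and its share was called in RNAi against Ov199, where it was 2.41 percentage points higher (adjusted p = 0.040).

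Over all 28 sequences, 3 levels were called in Ov199 against NP, 2 higher and 1 lower, where 17.7% of all sequences tested were called. In RNAi against NP 2 were called, both higher, against 14.8% of all sequences. In RNAi against Ov199 1 was called higher and 2 lower, against 20.5%. Of the shares within the family, 2 of 28 were called for Ov199 against NP, where 7.41% of the sequences of all families were. For RNAi against NP 2 shares were called (6.68% over all families), and between RNAi and Ov199 3 were (12.2%). The number of called sequences of the family was thus not above these percentages in any comparison of levels.

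The ratio of the 22 nt to the 21 nt upstream form differed between the member groups. For osa-MIR444b and osa-MIR444c it was 1.05 in Ov199, 1.04 in RNAi and 0.779 in NP, so that the 22 nt form made up 51.2% of the pair in Ov199 (49.2 to 53.1%), 51.0% in RNAi (48.6 to 53.4%) and 43.8% (40.7 to 47.0%) in NP. For osa-MIR444a, osa-MIR444d and osa-MIR444e the 22 nt form had 2 reads in Ov199, 3 in RNAi and 2 in NP, beside 49 (Ov199), 29 (RNAi) and 31 (NP) of the 21 nt form. The 22 nt form was there 3.92% of the pair in Ov199 (1.08 to 13.2%), 9.38% in RNAi (3.24 to 24.2%) and 6.06% (1.68 to 19.6%) in NP. As osa-MIR444a and osa-MIR444e had no 22 nt read, these reads belong to osa-MIR444d. The 21 nt reads beside them fit osa-MIR444a, osa-MIR444d and osa-MIR444e alike, so the percentage for osa-MIR444d alone cannot be given. The intervals of the 2 member groups did not overlap in any library. This ratio was chosen after the values were seen and was not tested.

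The upstream 21 nt form of osa-MIR444a, osa-MIR444d and osa-MIR444e had normalized counts of 520 in Ov199, 462 in RNAi and 628 in NP. Its ratio to NP was 0.828 for Ov199 (0.518 to 1.34, adjusted p = 0.66 by Fisher's exact test) and 0.736 for RNAi (0.428 to 1.26, adjusted p = 0.57), and neither was called. Compared with the same form of osa-MIR444b and osa-MIR444c, it was lower by more than an order of magnitude in every library.

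The 17 nt form of osa-MIR444a and osa-MIR444d was the form with a call past 2-fold in Ov199 against NP. It had 27 reads in Ov199, 38 in RNAi and 38 in NP, which gave normalized counts of 287 (Ov199), 606 (RNAi) and 770 (NP). Ov199 (interval 189 to 417) lay below NP (545 to 1057) and below RNAi (429 to 832). The ratio of Ov199 to NP was 0.372 (0.219 to 0.626, adjusted p = 0.0012 by Fisher's exact test) and that of RNAi to Ov199 was 2.11 (1.26 to 3.60, adjusted p = 0.021), while that of RNAi to NP was 0.787 (0.488 to 1.27, adjusted p = 0.64). Its share of the family was 0.671% in Ov199, 1.48% in RNAi and 2.31% in NP, and this share was called in Ov199 against NP (-1.64 percentage points, adjusted p = 2.7e-05) and in RNAi against Ov199 (0.81 percentage points, adjusted p = 0.023). At 17 nt it is shorter than the usual length of a plant miRNA, and whether it is a mature product or a fragment was not tested.

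A further called form was MIR444b 106 to 126, a 21 nt sequence that started 1 nt after the upstream 21 nt form. It had 35 reads in Ov199, 9 in RNAi and 9 in NP, which gave normalized counts of 372 (Ov199), 143 (RNAi) and 182 (NP). The ratio of RNAi to Ov199 was 0.386 (0.163 to 0.819, adjusted p = 0.044 by Fisher's exact test), and it was not called against NP in either line (2.04 in Ov199, 0.960 to 4.82, and 0.787 in RNAi, 0.277 to 2.24).

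**Figure D4:**
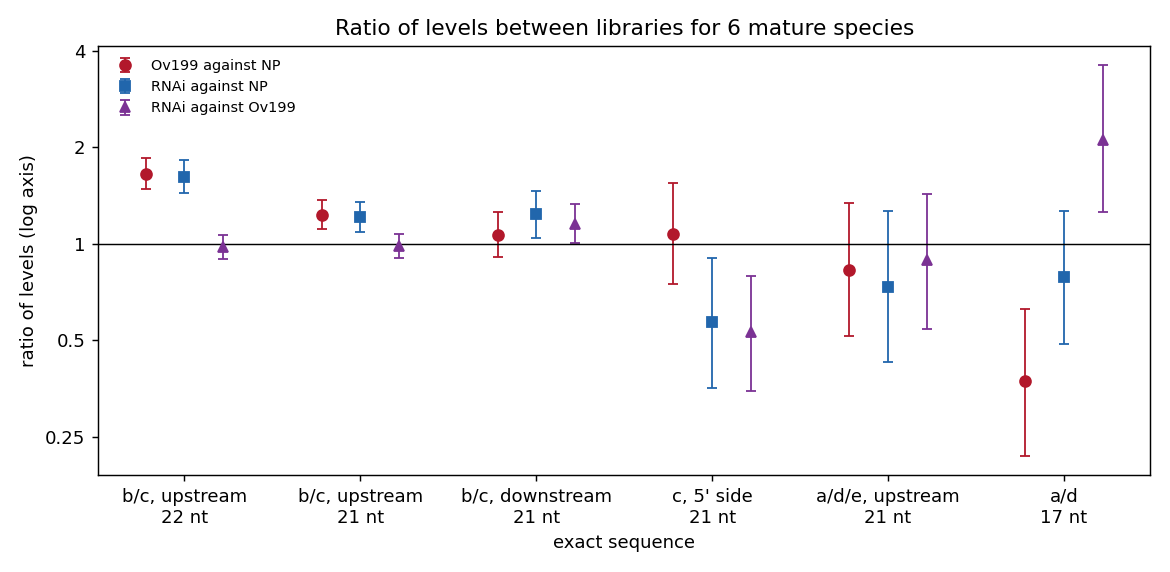
Ratio of levels (log axis) of 6 exact sequences for Ov199 and RNAi, each set against NP, and for RNAi set against Ov199, with exact binomial 95% intervals and a line at 1. The upstream 22 nt form lies at 1.66 and 1.62 against NP, the form from the 5′ side of osa-MIR444c lies at 0.532 in RNAi against Ov199, and the 17 nt form lies at 0.372 in Ov199 against NP.

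The 5′ side of the hairpins gave few reads. Reads from that side made up 3.78% of the family in Ov199 (152 reads, 3.23 to 4.41%), 2.29% in RNAi (59 reads, 1.78 to 2.95%) and 4.01% (66 reads, 3.17 to 5.07%) in NP. Most of them, 122 in Ov199, 52 in RNAi and 60 in NP, fitted osa-MIR444c. osa-MIR444b had 12 (Ov199), 1 (RNAi) and 2 (NP) and osa-MIR444d had 15 (Ov199), 3 (RNAi) and 4 (NP). osa-MIR444e and osa-MIR444f had 0 in every library.

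The main form of that side, MIR444c 24 to 44, was lower in RNAi than in Ov199. It had 96 reads in Ov199, 34 in RNAi and 47 in NP, which gave normalized counts of 1020 (Ov199), 542 (RNAi) and 953 (NP). The ratio of RNAi to Ov199 was 0.532 (0.348 to 0.794, adjusted p = 0.0098 by Fisher's exact test). The ratio of RNAi to NP was 0.569 (0.355 to 0.904), which was not called (adjusted p = 0.082), and that of Ov199 to NP was 1.07 (0.748 to 1.55, adjusted p = 0.90). Its share of the family was 2.39% in Ov199, 1.32% in RNAi and 2.86% in NP, and this share was called in RNAi against NP (a difference of -1.54 percentage points, adjusted p = 0.011) and in RNAi against Ov199 (-1.06 percentage points, adjusted p = 0.027). This form fits osa-MIR444c and no other known precursor, so its level belongs to a single member.

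When a miRNA and its partner strand are cut from a hairpin, they are expected to pair with a 2-nt overhang at each 3′ end. Set against each other in that way, MIR444c 24 to 44 and the downstream form gave 16 Watson-Crick pairs, 2 G-U pairs and 1 unpaired position over 19 positions. Against the upstream 21 nt form the same strand gave 8 Watson-Crick pairs, 3 G-U pairs and 8 unpaired positions. By letters the 5′ side form thus paired with the downstream form, and no 5′ side sequence with 10 or more reads paired as well with the upstream forms. In every library the downstream form had more reads than its partner, 471 against 96 in Ov199, 363 against 34 in RNAi and 231 against 47 in NP. The downstream form fits both osa-MIR444b and osa-MIR444c, while its partner fits osa-MIR444c alone. These counts therefore do not give the strand ratio of a single hairpin.

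Reads of the family were mostly 21 and 22 nt long. The 21 nt class made up 52.9% in Ov199 (51.4 to 54.5%), 53.6% in RNAi (51.6 to 55.5%) and 58.4% (56.0 to 60.7%) in NP. The 22 nt class made up 36.9% in Ov199 (35.5 to 38.4%), 37.5% in RNAi (35.7 to 39.4%) and 29.8% (27.6 to 32.0%) in NP. Among reads of all other known precursors the 22 nt class was 9.51% in Ov199, 9.64% in RNAi and 9.65% in NP. The 24 nt class was 0.0994% (Ov199), 0.155% (RNAi) and 0.243% (NP) of the family, against 11.2% (Ov199), 13.7% (RNAi) and 13.8% (NP) of the reads of other known precursors.

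The 21 nt share was lower in Ov199 than in NP, with a difference of -5.44 percentage points (adjusted p = 0.0043, Fisher's exact test over 68 families with 100 or more reads), where 4.41% of families were called. RNAi was also lower than NP, with a difference of -4.80 percentage points (adjusted p = 0.031), where 7.35% of families were called. Between RNAi and Ov199 it differed by 0.64 percentage points (adjusted p = 0.86), with 8.82% of families called. The median difference over all 68 families was 0.68 percentage points in Ov199 against NP, -0.23 between RNAi and Ov199 and 0 in RNAi against NP. The 21 nt and 22 nt shares are counted in the same reads and are not separate observations.

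**Figure D5:**
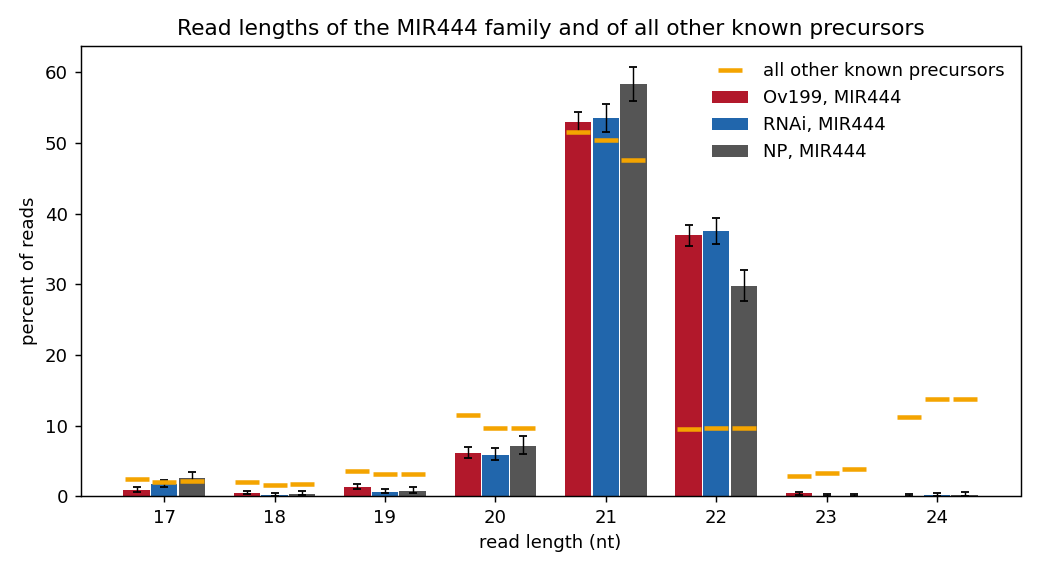
Percent of reads by length (nt) in Ov199, RNAi and NP for the MIR444 family (bars, Wilson 95% intervals) and for all other known precursors (horizontal marks). The 22 nt class reaches 36.9% in Ov199 and 37.5% for RNAi, against 29.8% for NP, and is between 9.51% and 9.65% for other precursors.

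Length also separated reads placed on osa-MIR444b from those placed on osa-MIR444a, osa-MIR444d and osa-MIR444e. These other precursors shared most of their reads with each other, so their lengths are not separate observations. Of the reads placed on osa-MIR444b, 39.7% in Ov199, 39.8% in RNAi and 32.9% in NP were 22 nt long. osa-MIR444a and osa-MIR444e had no 22 nt read in any library, and osa-MIR444d had 8 in Ov199, 3 in RNAi and 8 in NP. Reads shorter than 20 nt made up 32.8% of osa-MIR444a in Ov199, 45.1% in RNAi and 47.9% in NP, and 2.11% (Ov199), 1.26% (RNAi) and 1.52% (NP) of osa-MIR444b. On osa-MIR444e the 21 nt class made up 89.9% (Ov199), 94.4% (RNAi) and 81.8% (NP).

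Reads with the same 5′ end mostly had the same 3′ end. Of the exactly aligned reads that began with the upstream 22 nt form, 97.2% in Ov199, 96.5% in RNAi and 92.9% in NP were 22 nt long. Of those that began with the upstream 21 nt form, 92.6% (Ov199), 93.4% (RNAi) and 91.6% (NP) were 21 nt long, and of those that began with the downstream form 97.7% (Ov199), 99.2% (RNAi) and 98.7% (NP) were.

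Reads that did not align exactly made up 5.69% of the family in Ov199 (5.02 to 6.45%), 4.31% in RNAi (3.59 to 5.17%) and 5.41% (4.42 to 6.61%) in NP, against 16.3% (Ov199), 16.1% (RNAi) and 17.6% (NP) for other known precursors. Most were substitutions of 1 base, and 189 of them over the 3 libraries were at the first base. The most frequent was G1T in the upstream 22 nt form, with 30 reads in Ov199, 17 in RNAi and 11 in NP, where the precursor base is given first and positions are counted from the 5′ end of the read. Next was T1G in a 22 nt sequence that started 1 nt before the downstream form, with 32 (Ov199), 14 (RNAi) and 6 (NP) reads, and then A5C in the upstream 22 nt form, with 21 (Ov199), 16 (RNAi) and 12 (NP) reads. Whether these are sequencing errors was not tested.

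Other miRNA families that plant studies link to nitrogen supply were set beside MIR444. The list held MIR160, MIR164, MIR167, MIR169, MIR171, MIR393, MIR395, MIR399, MIR408, MIR528 and MIR827. The list is not complete and was chosen with earlier results of these data known. All 11 had reads. The shares called over all families include families with very few reads, which can hardly be called. They are thus not matched to the list in depth, and whether the list differs from other families was not tested. In Ov199 against NP 3 were called higher (MIR167, MIR169 and MIR393) and 2 lower (MIR164 and MIR399), beside 18 higher and 31 lower of all 259 families (18.9% called). The median fold was 1.18 in the list and 0.956 over all families. In RNAi against NP 4 were called higher (MIR167, MIR399, MIR408 and MIR528) and 1 lower (MIR164), beside 16 higher and 9 lower of 255 families (9.80% called). The median fold was 1.14 in the list and 1.06 over all families. In RNAi against Ov199 3 were called higher (MIR399, MIR408 and MIR528) and 3 lower (MIR169, MIR393 and MIR827), beside 31 higher and 17 lower of 264 families (18.2% called). The median fold was 1.09 in the list and 1.10 over all families. MIR167, which targets auxin response factors, had normalized counts of 21380 in Ov199, 20710 in RNAi and 15383 in NP.

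By the folds of Ov199 against NP and of RNAi against NP, the families most like MIR444 among 68 with 100 or more reads were MIR2118, MIR5073 and MIR396. Their larger difference from MIR444 in either log2 fold was 0.06 for MIR2118, 0.07 for MIR5073 and 0.07 for MIR396. MIR2118 had folds of 1.27 and 1.28, MIR5073 had 1.25 and 1.29, and MIR396 had 1.35 and 1.22. MIR2118 had 80 reads in Ov199, 54 in RNAi and 33 in NP and MIR5073 had 127 (Ov199), 87 (RNAi) and 53 (NP), so the likeness of both rests on few reads, while MIR396 had 2135 (Ov199), 1286 (RNAi) and 829 (NP).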

How the data were processed

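Per the labels and the study's methods, RNA of leaves, flowers and stems was pooled and sequenced on an Illumina instrument, with 1 library per line. After removal of adapters and low-quality reads, the authors merged identical reads and aligned them with novoalign to known precursors and to those that miRDeep2 predicted. The deposited values are read counts per distinct sequence, not normalized, with the length of the sequence and its positions on each precursor. At most 1 mismatch, inserted or deleted base was present. Aligner settings are not given in the sources used here.

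Here reads were summed per precursor, family and exact sequence and scaled to reads per 1000000 aligned reads. Folds used a pseudocount of 10. Because edgeR's replicate-based test needs replicates, Fisher's exact test was used. Sequences with 10 or more reads and, for length shares, families with 100 or more reads were described. The test was run on simulated counts that held counting error alone, so this does not bear on the spread between plants. The members and lists were chosen with earlier results of these data known. The text names all 6 members, up to 12 of the most abundant exact sequences by their letters, and the 3 families most like MIR444. Scaling alternatives used TMM (edgeR 4.0.16), DESeq2 1.42.0 size factors and the adapter-trimmed read totals of the study. Tables were computed with pandas 2.3.3 and numpy 2.4.6 under Python 3.11.15, tests with scipy 1.17.1, plots with matplotlib 3.10.9 and scaling factors with R 4.3.3. No table of mature rice miRNA sequences was used here, so the species carry no database names.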

Additional observations from a re-analysis of the deposited data

How the results depend on the processing

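Among the alternatives, pseudocounts of 1 and 100 changed the fold alone and could not change a call. A minimum of 10 reads per feature left the family's reads unchanged and altered only the adjustment of its p-value. The family fold of Ov199 against NP kept its direction and stayed called under all 11 alternatives, these included, between 1.16 and 1.52. That of RNAi against NP stayed called under 10 of 11. It was 1.10 and no longer called (adjusted p = 0.10, Fisher's exact test) without the 22 nt form, an alternative chosen after seeing the data. The family fold of RNAi against Ov199 was not called, but was called at 0.857 with TMM, 0.795 with adapter-trimmed reads as totals, 0.886 with reads at known precursors as totals and 0.901 with reads of 20 to 24 nt, and the cause was not tested. The number of members called in that comparison was 2 in place of 0 under the same 4 alternatives, and 1 with reads placed on a single precursor (osa-MIR444b, fold 0.191, adjusted p = 4.3e-06 by Fisher's exact test). Under that last setting 5 members were tested. Those past 2-fold numbered 1 between Ov199 and NP, 2 between RNAi and NP and 2 between RNAi and Ov199, in place of 0. The share of all precursors under these alternatives is not given here, so the counts of members have no background beside them. With reads placed on a single precursor no member was called against NP (0 in Ov199 and 0 in RNAi). The folds of osa-MIR444b and osa-MIR444c in RNAi against NP then turned to 0.364 and 0.726, which rest on few reads. The call of osa-MIR444d in Ov199 against NP was lost under 7 of 12 alternatives, and in RNAi against NP it was gained under 4. Adapter-trimmed totals moved every log2 ratio by 0.24 for Ov199 to NP and by -0.27 for RNAi to Ov199, and TMM moved those for RNAi to Ov199 by -0.16. Shares within the family do not depend on these totals. Taking all 20 to 22 nt reads with the same start in place of 1 sequence changed no call of the 4 most abundant forms, and the 21 nt shares kept their calls with exact alignments. No paired analysis was possible because each line has 1 library, and for the same reason no replicate could be left out. The depth limits osa-MIR444f, with at most 13 reads in a library.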
